A study of Tetranychus urticae with 12 samples.

Results

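A set of 53 genes of the two-spotted spider mite Tetranychus urticae had almost no reads in the strain BC2018-14 while being read in every library of the strains Trizina and London. They were chosen by their read counts from 19114 gene IDs. A gene belonged to the set when each of the 4 BC2018-14 libraries held at most 3 counts of it and each of the 4 Trizina and 3 London libraries held at least 0.5 CPM (a gene's count scaled by the total count of its library, to a common library size). A block of neighbouring IDs on scaffold 11 and another on scaffold 6 are left out by the rule, and neither held a gene that met the rule. Turned to London, the same rule gave 69 genes, and turned to Trizina it gave 15. RNA came from whole untreated mites reared on kidney bean without insecticide, and each library was made from mRNA with its strand kept, per the labels. The labels name the strains, with the codes S-1 for London and S-2 for BC2018-14 and none for Trizina, and the series title concerns a Greek field population resistant to several insecticides. Resistance itself is not among the measurements analysed here. The labels give neither age, sex and number of mites nor separate cultures. A p-value therefore reflects how far libraries of a strain differ, and that spread may be technical.

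Tetranychus urticae is a small arachnid that feeds on the cell contents of a very wide range of plants, and its strains are known for rapid evolution of resistance to pesticides. Strains kept apart differ both in how strongly genes are transcribed and in which gene copies their genomes carry. A read is counted for a gene only when it aligns to the reference sequence of that gene, and the published reference genome of the species was made from the London strain. In read counts a gene that is silent, a gene that is absent and a gene whose sequence differs too much to be aligned cannot be told apart. In whole mites, fewer cells of a type and less RNA per cell cannot be told apart either. No file names the genes, and a match of all 19114 IDs to the RefSeq table found 0, so no function is given for any of them. Scaffold and neighbours are read from the ID itself, in which the number before the letter g names the scaffold and the number after it gives the order.

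The libraries held 26454588 to 30799433 counts in Trizina, 29262202 to 39875401 in London and 26090006 to 26851943 in BC2018-14. The absence in BC2018-14 was close to complete. All 53 genes together had 9569, 9230, 8762 and 8549 counts in Trizina libraries 4 to 7 and 17680, 12309 and 16989 counts in London libraries 2, 3 and 4. In BC2018-14 libraries a, b, c and e they had 14, 26, 14 and 16 counts. No count was found in any BC2018-14 library for 35 of the genes. Another 9 had 1 to 3 counts over the 4 BC2018-14 libraries, and the remaining 9 had more, with a highest sum of 10. These values chose the genes and are given as a description with no test. With a call set at an adjusted p under 0.05 and a log2 fold change of 1 or more in size (edgeR), 9.91% of all genes tested were called higher in Trizina than in BC2018-14, 14% were called higher in London than in BC2018-14, and 5.88% were called lower in BC2018-14 than in both.

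For the 35 genes at 0, a limit of 3 counts in each BC2018-14 library, or 0.113 CPM, gives a lower bound of the difference. The bound was highest for tetur09g06240 in Trizina, at least 419-fold higher than in BC2018-14, and for tetur08g07580 in London, at least 438-fold higher. It was lowest for tetur05g05610 in Trizina, at least 6.36-fold higher, and for tetur05g05640 in London, at least 6.91-fold higher. The member with the most counts in BC2018-14 was tetur21g03329, with 2 or 3 counts in every BC2018-14 library. Its ratio of Trizina to BC2018-14 was 8.22 (exact 95% counting interval 4.27 to 17.7). Its ratio of London to BC2018-14 was 10.6 (5.55 to 22.9). Such limits and intervals hold for counting error alone. The intervals rest on counts summed over the libraries of each strain, so they leave out the spread between libraries. PCR copies of a molecule are also counted as separate reads. Limits and intervals alike do not take into account that the rule capped the BC2018-14 counts of these genes.

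Most of the genes had few reads in the strains that expressed them. Their mean was 0.720 to 47.4 CPM in Trizina, with a median of 2.56, and 0.783 to 49.5 CPM in London, with a median of 4.35. At least 10 CPM was reached by 7 of the genes in Trizina and by 19 in London. CPM is not divided by gene length, so these values rank reads and not transcripts. Genes read at 0.5 CPM or more in every Trizina and London library, 12098 in all, had a median of 30.1 CPM in Trizina and 28.1 CPM in London. The 53 genes made up 0.438% of them.

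The summed level of the set was steady in Trizina and uneven in London. It was 311, 320, 320 and 323 CPM in Trizina libraries 4, 5, 6 and 7, a mean of 318 ± 5.40 CPM (SD, n = 4). In London libraries 2, 3 and 4 it was 604, 416 and 426 CPM, a mean of 482 ± 106 CPM (SD, n = 3). London library 2 stood apart from the other London libraries, which lay close together. The genes that made up the sum also differed. In Trizina, tetur09g06240 and tetur09g01060 held 26.8% of it, with 24.2% to 28.8% in single libraries, whereas in London they held 0.659%, with 0.385% to 0.901%.

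The ratio of Trizina to London was not used by the rule, which set the same minimum in both strains, although that minimum cuts off large ratios of weakly read genes. It was tested across all 14394 genes that passed a filter on low counts, with edgeR's quasi-likelihood test and Benjamini-Hochberg adjustment. Calls were made as above. All 53 genes passed the filter, as their minimum in 7 libraries ensured. Of these, 24 were lower and 7 were higher in Trizina than in London, and 22 were not called. Among all genes tested, 9.96% were called lower and 7.62% higher in Trizina, and among the 12098 genes read in every library of both strains the shares were 6.14% and 4.39%. Within the set the share called lower was 45.3% and the share called higher was 13.2%. These shares were not compared at a matched level, and the set had fewer reads than the genes read in both strains.

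The median log2 fold change of the 53 genes was -0.89 for Trizina over London, against 0.0007 for all genes tested. The fitted value was below 0 for 36 genes and above 0 for 17. At least a log2 difference of 1 in either direction was fitted for 34 genes, or 64.2%, compared with 11.2% of the genes read in both strains. The latter had a median of 30.1 CPM in Trizina and 28.1 CPM in London, against 2.56 and 4.35 CPM for the set. Weakly read genes vary more, and no share at a matched level was computed. Without London library 2 the median was -0.47, and 9 genes were called higher and 21 lower. Without London library 3 only 4 genes were called higher. In each of the 7 fits that left out 1 Trizina or London library, the same 21 genes were called lower and the same 4 higher. All libraries of the strains were apart for 32 genes, with every Trizina library below every London library for 23 and above for 9. Among genes read in both strains these shares were 11.3% and 32.9%, on CPM without further scaling.

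**Figure D1:**
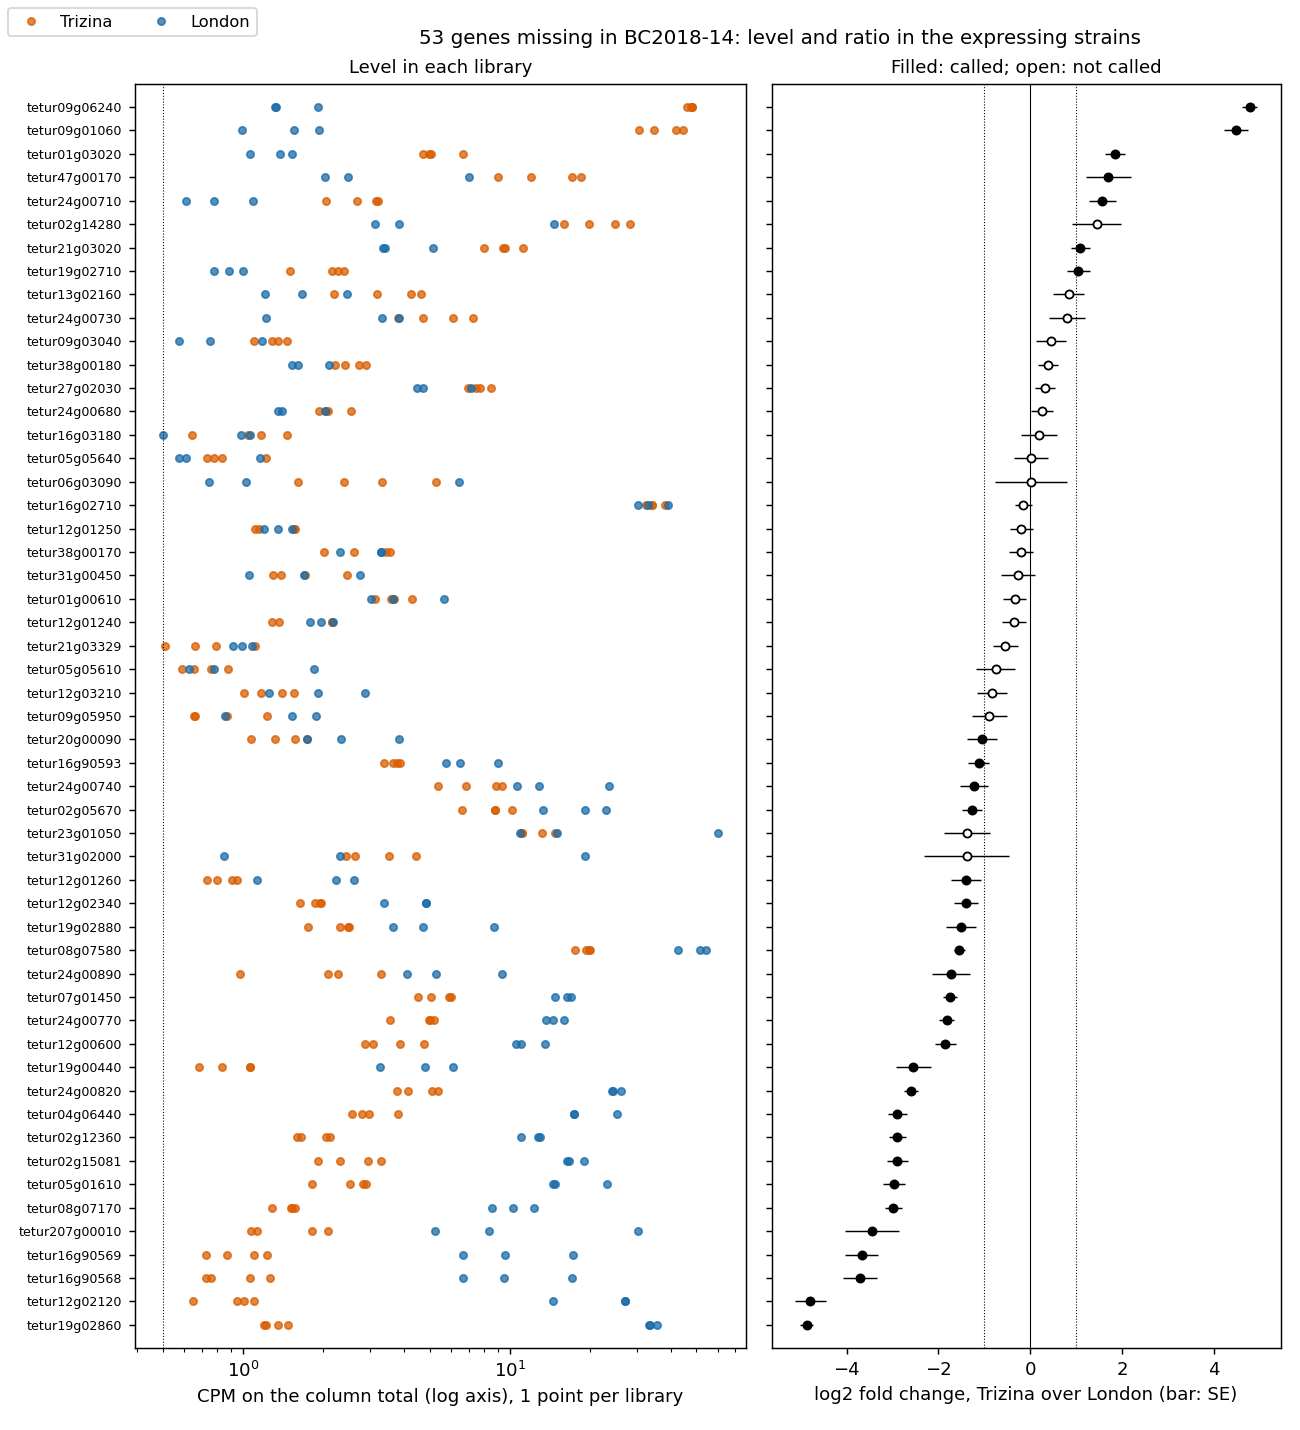
Levels and ratios of the 53 genes, ordered by log2 fold change. The left panel shows the CPM of each gene in each Trizina and London library on a log axis, with a dotted line at the minimum of 0.5 CPM, and the right panel shows the fitted log2 fold change of Trizina over London with its standard error, filled where called. The 24 genes called lower in Trizina lie toward the bottom and the 7 called higher at the top, where tetur09g06240 and tetur09g01060 stand apart from the rest.

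Among the genes higher in Trizina, those on scaffold 9 had by far the largest difference. For tetur09g06240 the Trizina libraries 4 to 7 held 46.1, 47.8, 48.0 and 47.9 CPM, against 1.33, 1.32 and 1.91 CPM in London libraries 2 to 4. It differed by 4.78 ± 0.16 on the log2 scale (SE), or 27.5-fold, with an adjusted p of 7.22e-08 (edgeR quasi-likelihood). This was also the gene with the smallest spread in Trizina, a coefficient of variation of 1.84%. For tetur09g01060 the Trizina libraries held 34.5, 44.5, 42.0 and 30.4 CPM, against 0.991, 1.56 and 1.93 CPM in London. The log2 difference was 4.48 ± 0.26 (SE) with an adjusted p of 2.06e-06. No Trizina library of either gene came near a London library.

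The other genes called higher in Trizina differed by far less. For tetur01g03020 the levels were 6.66, 4.99, 5.08 and 4.72 CPM in Trizina and 1.06, 1.52 and 1.38 CPM in London, a log2 fold change of 1.85 ± 0.22 (SE) with an adjusted p of 0.000204. For tetur24g00710 they were 3.21, 2.67, 2.05 and 3.14 CPM in Trizina and 1.09, 0.609 and 0.777 CPM in London, a log2 fold change of 1.57 ± 0.30 (SE) with an adjusted p of 0.00321. In both genes the strains did not overlap. The remaining calls each depended on single libraries. The call of tetur47g00170, at 1.70 ± 0.49 (log2, SE), was lost without London library 3 (1.45 ± 0.55, adjusted p 0.0682), London library 4 (1.38 ± 0.50, 0.0569) or Trizina library 6 (1.54 ± 0.53, 0.0505), with a value still above 1 in each. Without London library 2, the highest for this gene, the value was 2.50 ± 0.40 (adjusted p 0.000649). The calls of tetur21g03020 (log2 1.09) and tetur19g02710 (log2 1.04) lay close to the minimum fold change. The log2 value of tetur21g03020 was 0.99 without London library 2 and 0.98 without London library 3. That of tetur19g02710 was 0.96 without Trizina library 5 and 0.95 without London library 3.

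The 24 genes lower in Trizina had a median difference of 4.60-fold. The largest was in tetur19g02860, with 1.2, 1.21, 1.35 and 1.47 CPM in Trizina and 35.6, 33.4 and 33.3 CPM in London. Its log2 fold change was -4.87 ± 0.14 (SE), which makes Trizina 29.3-fold lower, with an adjusted p of 2.20e-08. The London libraries differed by little for this gene, with a coefficient of variation of 3.91%, the lowest of the set in London. For tetur12g02120 the Trizina libraries held 0.649, 1.01, 0.950 and 1.1 CPM and the London libraries 26.9, 27.0 and 14.5 CPM. The log2 fold change was -4.79 ± 0.34 (SE) with an adjusted p of 5.84e-07. This gene had 1, 3, 0 and 0 counts in BC2018-14, which the rule makes the lowest strain for every member.

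Several other genes lower in Trizina had smaller fitted differences that lay close together. For tetur04g06440 the values were 2.95, 2.57, 3.80 and 2.80 CPM in Trizina and 17.4, 17.4 and 25.3 CPM in London. For tetur05g01610 they were 2.82, 2.88, 2.52 and 1.81 CPM in Trizina and 14.7, 14.4 and 23.1 CPM in London. Both genes, together with tetur02g12360, tetur02g15081 and tetur08g07170, had log2 fold changes between -2.98 and -2.89, with SEs of 0.18 to 0.24. These genes lie on different scaffolds apart from the pair on scaffold 2. They were picked after their values were seen, and whether they form a group was not tested. None of the 5 had overlapping strains.

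The gene with the highest level in London was tetur08g07580. It had 20, 19.7, 17.5 and 19.3 CPM in Trizina, 51.6, 42.8 and 54.2 CPM in London and 0 counts in BC2018-14. Its log2 fold change was -1.55 ± 0.12 (SE) with an adjusted p of 1.17e-05, and the strains were well apart. At the other end of the called genes, tetur20g00090 was called at -1.06 ± 0.32 (log2, SE) with overlapping strains. That call was lost without London library 2 (-0.67) and without Trizina library 4, 5 or 6, where the log2 values were -1.11, -0.95 and -1.03 (adjusted p 0.0572 to 0.0791). Without London library 2 the value of tetur16g90593 was -0.90, compared with -1.13 with all libraries.

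One well-read gene had overlapping levels in the expressing strains. For tetur16g02710 the Trizina libraries held 34.1, 34.2, 32.4 and 38.0 CPM and the London libraries 39.2, 30.2 and 33.0 CPM, whereas BC2018-14 libraries a, b, c and e held 0, 3, 0 and 1 counts. The strains overlapped, and the log2 fold change was -0.15 ± 0.18 (SE) with an adjusted p of 0.557. The counted ratio of Trizina to BC2018-14 was 917 (exact 95% counting interval 358 to 3368). The counted ratio of London to BC2018-14 was 901 (352 to 3310). These intervals, too, leave out the spread between libraries and the rule's cap on the BC2018-14 counts. Weakly read genes without a call included tetur12g01250, tetur38g00170 and tetur01g00610, whose libraries overlapped too.

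A subset of the genes varied strongly between the London libraries. London library 2 was the highest of the 3 for 30 of the 53 genes (56.6%), whereas it was the highest for 38.7% of the genes read in both strains. It reached at least 2 times both other London libraries for 7 genes (13.2%), against 2.01% of the genes read in both strains. No member had London library 3 or 4 that far above the others. For tetur23g01050 the Trizina libraries held 14.8, 11.1, 11.1 and 13.2 CPM, while London libraries 2, 3 and 4 held 60.2, 10.9 and 14.9 CPM. For tetur31g02000 the Trizina libraries held 3.51, 2.43, 2.63 and 4.46 CPM and the London libraries 19.1, 0.846 and 2.31 CPM. In both genes London library 2 lay far above every Trizina library, and the other London libraries lay within or close to the range of Trizina or below it.

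**Figure D2:**
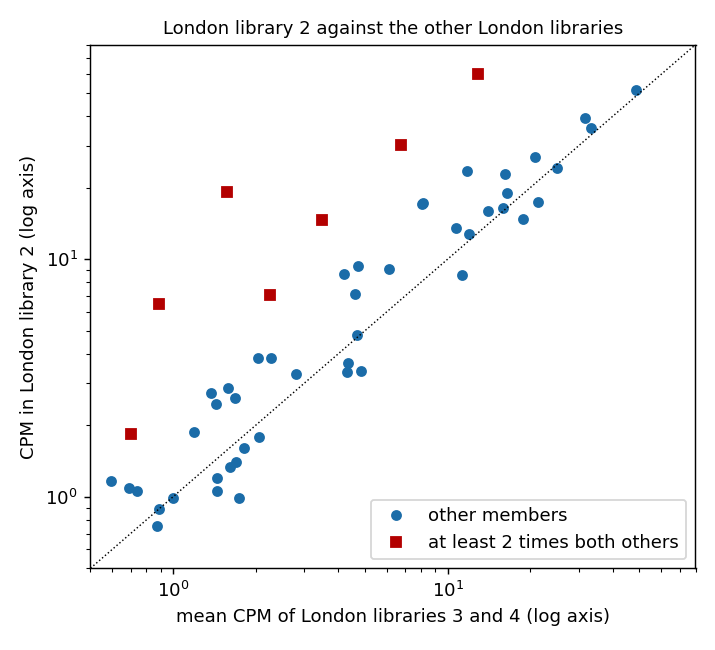
The CPM of each of the 53 genes in London library 2 against its mean in London libraries 3 and 4, both on log axes, with a dotted line of equality. The squares mark the 7 genes for which library 2 was at least 2 times both other libraries, and most other genes lie near the line.

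Leaving that library out moved the fitted values of such genes. For tetur31g02000, one of the 36 genes below 0, the log2 fold change was -1.39 ± 0.92 (SE, adjusted p 0.291) with all libraries. It turned to 0.86 ± 0.43 (SE, adjusted p 0.155) without London library 2, with no call in either fit. For tetur02g14280, with 15.9, 24.7, 28.3 and 19.8 CPM in Trizina and 14.6, 3.11 and 3.84 CPM in London, the log2 fold change was 1.44 ± 0.53 (SE, adjusted p 0.0558). Without London library 2 it was 2.51 ± 0.35 (SE, adjusted p 0.000212). For tetur06g03090 the value was 0.01 with all libraries and 1.65 ± 0.49 (SE, adjusted p 0.0285) without it. For tetur23g01050 it was -1.38 with all libraries and -0.20 without library 2. In tetur207g00010, at 1.82, 1.08, 1.13 and 2.08 CPM in Trizina and 30.2, 8.36 and 5.22 CPM in London, the call held in both fits, at -3.45 and -2.30 on the log2 scale. What sets this library apart was not tested. The median coefficient of variation of the set was 18.8% in Trizina and 29.8% in London, against 9.04% and 15.7% for the genes read in both strains, which had more reads.

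London library 5 was not part of the rule, because the raw count table holds no column of it. Its counts were available for 21 members, in the authors' deposited table for the Trizina and London comparison, which holds 7.63% of all IDs. That table lists genes chosen for a difference between these strains with library 5 included, so its members are a selected part of the set. Of the 21, the authors' deposited table gave 17 as lower and 4 as higher in Trizina, and the values fitted here had the same sign for all 21. Apart from library 5, both rest on the same counts, so the shared sign is no independent check. Library 5 held 24 to 1694 counts of these genes. Taken as a share of the counts of all 1458 genes in the table, its level lay within the range of the other London libraries for 19 of the 21, and below it for tetur02g12360 and tetur07g01450. How often this held among all 1458 genes was not computed. A listing with library 5 included also favours genes in which it resembles the other London libraries, so the count is no check of the members. For tetur207g00010 that share was 137 CPM of the listed genes in library 5, while libraries 2, 3 and 4 had 272, 88.9 and 67.4 CPM on the same scale. A contrast that the rule used is in the authors' deposited table for Trizina and BC2018-14, which listed 48 of the 53 genes and 5.06% of all IDs.

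The 53 genes came from 21 scaffolds, and 9 of these scaffolds held 1 member each. Scaffolds 12 and 24 held 7 members each and scaffold 16 held 5. Relative to the number of genes on the scaffold that were read in both strains, the members made up 4.49% on scaffold 24, 2.32% on scaffold 12 and 2.11% on scaffold 16. Scaffold 1, with the most IDs among the 21, held 2 members, or 0.182%. On scaffold 38 the 2 members were 3.28% of 61 genes. On scaffolds with fewer than 20 IDs lay 2 of the 53 members, and 2.39% of the genes read in both strains lay on such scaffolds. Of the members, 3 (5.66%) had IDs numbered from 90000, compared with 2.90% of the genes read in both strains.

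All 7 members on scaffold 24 lay within a single run of IDs, from tetur24g00680 to tetur24g00890. This run held 21 IDs, and its ends are members by construction. Of the 14 IDs in it that are not members, 8 had at most 3 counts in every BC2018-14 library, against 17.5% of all non-members in the order, and 7 had none at all, against 11.4%. All 14 were tested, and 6 of them were called lower in BC2018-14 than in both Trizina and London. Among all 14341 non-members tested this share was 5.53%. The members differed in which strain was higher. For tetur24g00820 the Trizina libraries held 5.36, 4.16, 3.76 and 5.10 CPM and the London libraries 24.3, 24.1 and 26.0 CPM, with a log2 fold change of -2.60 ± 0.15 (SE, adjusted p 2.23e-06). For tetur24g00770 they held 5.0, 3.54, 5.19 and 4.95 CPM in Trizina and 15.9, 14.4 and 13.7 CPM in London, with a log2 fold change of -1.82 ± 0.17 (SE, adjusted p 4.39e-05). The opposite direction was called for tetur24g00710, described above.

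The adjoining members tetur24g00730 and tetur24g00740 also leaned in opposite directions. For tetur24g00730 the levels were 6.14, 3.81, 4.71 and 7.30 CPM in Trizina and 3.83, 1.22 and 3.31 CPM in London, without a call (log2 0.79 ± 0.40, SE). For tetur24g00740 they were 8.83, 5.38, 6.87 and 9.30 CPM in Trizina and 23.5, 12.9 and 10.6 CPM in London. It was called lower in Trizina (log2 -1.23 ± 0.31, SE, adjusted p 0.0147), but at -0.79 without London library 2 it no longer reached the minimum fold change. In tetur24g00890 the Trizina libraries ranged from 0.971 to 3.29 CPM and the London libraries from 4.13 to 9.33 CPM, and the gene was called lower in Trizina at -1.72 ± 0.42 (log2, SE).

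Between the members of this run lay IDs that differed even more between Trizina and London. An ID with 0 counts in BC2018-14 stays outside the set only when a Trizina or London library is below 0.5 CPM. Large differences among such IDs are therefore partly built in by the rule. Among those with 0 counts in BC2018-14, tetur24g00720 had 1.95 ± 0.611 CPM in Trizina (SD, n = 4) and 1 count over the London libraries. The reverse was seen in tetur24g00830, with 2 counts over the Trizina libraries and 2.84 ± 0.648 CPM in London (SD, n = 3). Not every ID of the run was missing in BC2018-14. The gene tetur24g00700 had 1.36 ± 0.0474 CPM in Trizina, 0.505 ± 0.0773 CPM in London and 1.31 ± 0.227 CPM in BC2018-14. For tetur24g00870 the levels were 1.94 ± 0.482, 3.70 ± 1.28 and 3.11 ± 1.21 CPM in Trizina, London and BC2018-14 (SD, n = 4, 3 and 4). Just before the run, tetur24g00670 had 15.4 ± 2.08, 13.9 ± 2.04 and 11.4 ± 2.43 CPM in the same order. Further before it, tetur24g00650 had 34 counts over the Trizina libraries, 20 over London and 0 over BC2018-14. Just after the run, tetur24g00900 had 1.92 ± 0.437, 8.96 ± 2.90 and 0.132 ± 0.143 CPM in the same order. The next ID, tetur24g00910, had 1.35 ± 0.262, 3.14 ± 0.640 and 0.405 ± 0.214 CPM. Both IDs after the run were called lower in BC2018-14 than in both other strains.

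**Figure D3:**
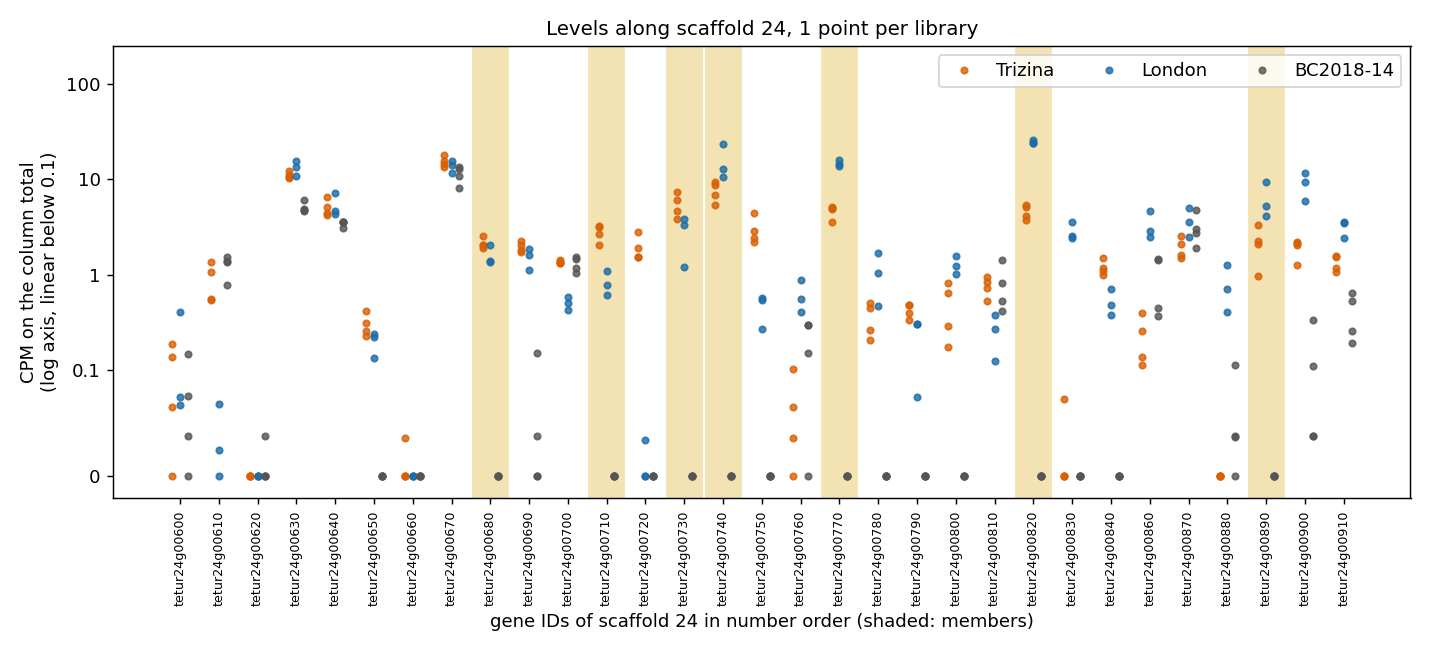
Levels of the IDs of scaffold 24 in number order, from tetur24g00600 to tetur24g00910, with 1 point per library in Trizina, London and BC2018-14. The vertical axis is CPM, logarithmic above 0.1 and linear below it, and members are shaded. BC2018-14 points lie at 0 over most of the run, interrupted by IDs such as tetur24g00700 and tetur24g00870 that were read in all 3 strains.

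Members also stood side by side on 2 other scaffolds. On scaffold 12, tetur12g01240, tetur12g01250 and tetur12g01260 were consecutive and had 0 counts in BC2018-14. The first held 1.36, 1.28, 2.15 and 2.15 CPM in Trizina and 1.78, 2.16 and 1.96 CPM in London. The second held 1.1, 1.14, 1.57 and 1.55 CPM in Trizina and 1.2, 1.35 and 1.53 CPM in London. Neither was called. The third held 0.909, 0.798, 0.730 and 0.945 CPM in Trizina and 2.60, 2.23 and 1.13 CPM in London, and it was called lower in Trizina (log2 -1.39 ± 0.33, SE, adjusted p 0.0101). The next ID, tetur12g01270, was not a member but had 0.980 ± 0.170 CPM in Trizina, 0.245 ± 0.0230 CPM in London and 1 count over the BC2018-14 libraries, and it was called lower in BC2018-14 than in both.

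On scaffold 38, tetur38g00170 had 2.60, 3.54, 2.01 and 3.44 CPM in Trizina and 3.28, 3.28 and 2.31 CPM in London. Its neighbour tetur38g00180 had 2.40, 2.22, 2.89 and 2.72 CPM in Trizina and 1.61, 2.1 and 1.53 CPM in London. The libraries of the strains overlapped for the first gene and not for the second. Both had 0 counts in BC2018-14 and neither was called. On scaffold 16, the IDs tetur16g90568 and tetur16g90569 had counts that differed by at most 3 in any Trizina or London library, over a range of 20 to 503 counts. Their log2 fold changes were -3.71 and -3.68. Whether the counting divided shared reads between them is not given in the sources used here, so both IDs are uncertain as separate measurements.

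The IDs next to the members were often low in BC2018-14 as well. Of the 53 members, 50 had a place in the number order, and 89 other IDs lay directly beside them, of which 68 were tested. Of these, 18 (26.5%) were called lower in BC2018-14 than in both Trizina and London, against 5.53% of all 14341 non-members tested. They came from 9 scaffolds. Without scaffold 24 the count was 14 of 57 (24.6%). Up to 3 IDs away, 38 of 193 (19.7%) were called lower, and in the opposite direction 3 (1.55%) were called higher in BC2018-14 than in both other strains, against 2.19% of non-members. The share called lower was 20.9% at 2 IDs, 10.3% at 3 and 6.25% at 4, and it lay between 1.72% and 8.06% from 5 to 10 IDs. The shares are descriptions, and neighbouring genes are not independent of each other.

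**Figure D4:**
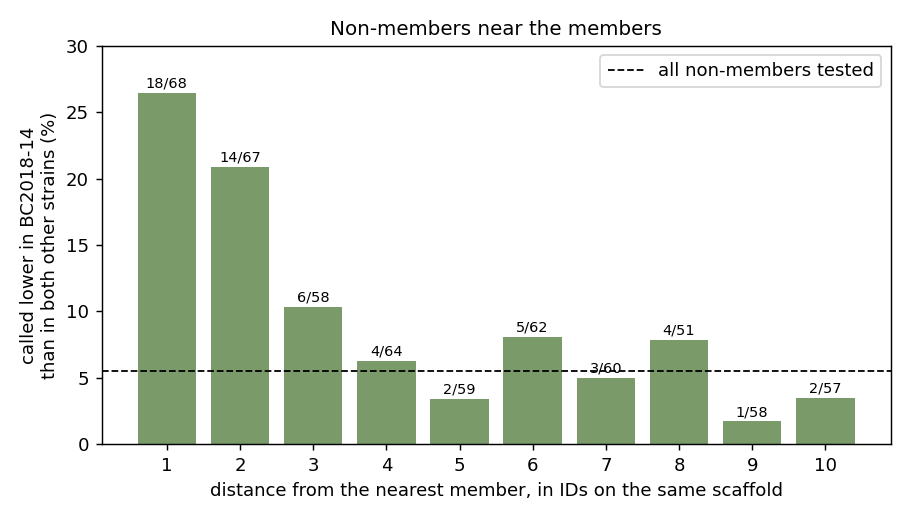
The share of non-members called lower in BC2018-14 than in both Trizina and London, by distance in IDs from the nearest of the 53 genes, with the number called and tested above each bar. The dashed line is the share among all non-members tested, 5.53%, and the bars at 1, 2 and 3 IDs are the highest.

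Several of these neighbours were well-read genes with a weak remainder in BC2018-14. Next to tetur16g02710, tetur16g02700 had 19.3 ± 1.30 CPM in Trizina, 12.2 ± 0.381 CPM in London and 0.491 ± 0.132 CPM in BC2018-14 (SD, n = 4, 3 and 4). The log2 differences were 5.36 ± 0.16 for Trizina and 4.87 ± 0.17 for London over BC2018-14 (SE). Next to tetur04g06440, tetur04g06430 had 27.2 ± 8.32 CPM in Trizina, 129 ± 15.5 CPM in London and 3.38 ± 2.09 CPM in BC2018-14. At 2 IDs from tetur08g07580, tetur08g07560 had 30.1 ± 0.510 CPM in Trizina, 29.4 ± 5.33 CPM in London and 0.415 ± 0.132 CPM in BC2018-14, log2 differences of 6.24 ± 0.21 and 6.39 ± 0.21 (SE). At 3 IDs from tetur06g03090, tetur06g03060 had 18.5 ± 1.6, 41.7 ± 2.98 and 0.443 ± 0.0796 CPM in the same order. These genes exceed the limit of 3 counts in BC2018-14 and so fall outside the set.

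Other neighbours were at 0 as well. Next to tetur19g02860, tetur19g02850 had 0.305 ± 0.116 CPM in Trizina, 10.9 ± 3.77 CPM in London and 0 counts in BC2018-14. Next to tetur02g14280, tetur02g14300 had 0.261 ± 0.134 CPM in Trizina, 4.79 ± 1.18 CPM in London and 0 counts in BC2018-14. Both missed the set only through their level in Trizina. Of the 89 adjoining IDs, 32 had at most 3 counts in every BC2018-14 library, and 11 of those had at most 3 in every library of all strains. The 21 left over were 23.6% of the adjoining IDs, compared with 5.55% of all 17302 non-members in the order, the adjoining IDs included.

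The adjoining IDs were also compared between Trizina and London. Of the 68 tested, 22 (32.4%) were called lower and 16 (23.5%) higher in Trizina than in London. The corresponding shares among all genes tested were 9.96% and 7.62%. An adjoining ID within the BC2018-14 limit of 3 counts is a non-member only when a Trizina or London library is below 0.5 CPM. Differences between Trizina and London are therefore partly built in by the rule among such IDs. The shares were not computed without them, so the comparison cannot show whether the neighbourhood itself differs between these strains.

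The minimum level and the count limit cut through a continuous range. The members with the lowest single library were tetur16g03180, at 0.502 CPM, and tetur21g03329, at 0.511 CPM. Just outside lay tetur09g05210, at 0.491 CPM, and tetur459g00010, at 0.485 CPM, both with 0 counts in BC2018-14. At the count limit, the members tetur21g03329 and tetur19g02710 had sums of 10 and 8 counts over BC2018-14, with at most 3 in a library. The non-members tetur24g00690 and tetur28g02600 had 4 counts in a single library and sums of 5 and 6.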

How the data were processed

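Per the labels, mRNA of whole mites was sequenced in 4 libraries each of Trizina, London and BC2018-14. The authors deposited raw read counts per gene. Per the submitters' processing notes the tools were HISAT2 2.1.0, SAMtools 1.10, featureCounts 1.6.0 and edgeR. Genome build, annotation and strand setting of the counting are not given in the sources used here, so values of near-identical, overlapping or antisense genes are uncertain. The authors' deposited comparison tables hold log2 fold changes, p-values and false discovery rates, per the file headers. The header of the raw table names 12 libraries and its lines hold 11 values. Each column was assigned by equality with a named column of a comparison table, at 1458 of 1458 or 967 of 967 genes, and London library 5 has none.

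Levels are CPM on the column total. Counts of 11 libraries were fitted with edgeR 4.0.16 in R 4.3.3 (filterByExpr, TMM factors, robust quasi-likelihood, strain as the only term), with Benjamini-Hochberg adjustment over 14394 genes. DESeq2 1.42.0 was an alternative. Other alternatives were scaling, filters, thresholds, the limits of the rule and leaving out each library. Each SE is the size of the fitted log2 value over the square root of its F statistic. On 3 simulations of the Trizina and London comparison with 14184 genes, the fit called 84.7% of log2 changes of 1.5 and 98.7% of those of 3, and 2.65% of calls were false. Changes were placed only in genes above a minimum mean level over all libraries. The shares called may therefore not hold for the most weakly read members. Libraries of the same strain always differed by more than sampling noise (chi-square over its degrees of freedom, 6.75 to 149.5). IDs numbered from 90000 were left out of the number order, since their numbers may not follow position.

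The members and all rules were chosen with earlier results of these data known. Named members were the 6 with the highest level, up to 3 with the largest called change in each direction and no overlap, members side by side, and those nearest to each limit. Genes outside that rule were named after their values were seen.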

Additional observations from a re-analysis of the deposited data

Results flagged for a closer look

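Of 53 groups of Trizina libraries, 1 for each member, 2 had a library far from the others, and chance gives about 1 in 20. In tetur09g06240, Trizina library 4 was the lowest, at 46.1 CPM, and its gap to the nearest library was 0.890 of the range. In tetur24g00770, Trizina library 5 was the lowest, at 3.54 CPM, with a gap of 0.858 of the range. Of 18 members with counts in BC2018-14 that differed between libraries, 7 (tetur02g14280, tetur02g15081, tetur09g05950, tetur13g02160, tetur16g03180, tetur16g90593 and tetur47g00170) had 1 or 3 counts in a single BC2018-14 library and 0 in the others. The gap is then the whole range by construction, a ratio of 1, on counts that the rule limited to 3, so the chance rate does not apply to them.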

How the results depend on the processing

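With 0 counts required in BC2018-14 the set had 35 genes, and with up to 10 counts allowed it had 93. An adjusted p below 0.001 with a log2 fold change of at least 1.5 gave 3 members higher and 15 lower in Trizina than in London (edgeR quasi-likelihood). Neighbours up to 3 IDs away gave 38 lower in BC2018-14, of 193 tested. Leaving out 1 library at a time gave 4 to 9 members higher, 21 to 26 lower, medians of -1.17 to -0.47 (log2) and 16 to 19 adjoining IDs lower in BC2018-14. Scaling by library size only shifted the log2 median over all genes by 0.17, gave 9 members higher and 22 lower, and reversed tetur16g02710 to 0.02 (0.0219 before rounding). Without 1 library, tetur16g03180 ranged from -0.09 to 0.41, reversing to -0.094 without London library 4, and tetur23g01050 ranged from -1.78 to -0.20. It was called without London library 3 or 4. The causes were not tested. The numbers of members called and of adjoining IDs lower in BC2018-14 stayed within 1.5 times those reported under the other settings run, DESeq2 included. Single genes were followed under all settings only for the 19 members named by the rule, where 274 values kept direction and call, 6 lost a call, 2 gained one and 2 reversed. Settings that changed only the thresholds of a call reused the same fit, so no value could reverse under them. With the adjusted p alone, no call could be lost either. The other members were refitted without single libraries, and of these tetur31g02000 turned from -1.39 to 0.86 and tetur47g00170 moved from 1.70 to 2.50 without London library 2. The scaffold 24 and London library 2 alternatives for neighbours were chosen after seeing the data. No paired analysis was possible because Trizina and London share only the number 4 among the libraries with columns, and BC2018-14 libraries carry letters. Few reads limit what can be called for members near 0.5 CPM.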
